A study of Mus musculus with 12 samples.

Results

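The genes described are 6 that carry, make or clear prostaglandins: Slco2a1, Ptgs1, Ptgs2, Ptgis, Ptges and Hpgd. Members were all probes that the platform annotation gives to these symbols alone, which found 10 probes for 5 of the 6 genes, of 34885 probes for 19057 genes on the array. No probe was listed for Ptgs1 (cyclooxygenase 1), which is not analysed here. RNA came from mouse carotid arteries, measured on 12 one-colour Illumina arrays, with 3 in each of 4 groups. The groups were the left common carotid artery (LCA) of fibulin-5 knockout (KO) mice, their right common carotid artery (RCA), the LCA of wild type (WT) mice and the WT RCA. Every mouse had a partial ligation of the LCA, which brings disturbed flow, and both arteries were taken 1 day later, so RCA is the untouched artery of an operated mouse. The labels give C57Bl/6J for all 12 samples, knockouts included, and give neither age nor sex nor the deleted part of the gene. The titles call these mice a knockout and the design text speaks of knockdown. Whether the 3 arrays of each group stand for 3 mice is not stated, and the p-values below therefore reflect only the variation among these samples.

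Prostaglandins are short-lived lipid signals made from arachidonic acid. Cyclooxygenases, encoded by Ptgs1 and the inducible Ptgs2, make the common precursor, which the prostacyclin synthase Ptgis and the prostaglandin E synthase Ptges turn into vasodilator and inflammatory products. The transporter Slco2a1 carries prostaglandins into cells, where the dehydrogenase Hpgd oxidises them, so that both act to end the signal. In arteries, prostacyclin from the vessel wall relaxes smooth muscle and restrains platelets.

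The promoter sequences of Slco2a1 and Hpgd are shown because these were the 2 members whose arrays did not overlap between the groups of at least 1 comparison. Such lack of overlap was common. In the lower direction alone, 11.2% of all tested probes had it for ligation in KO and 6.54% in WT. For KO minus WT the share was 5.34% in RCA and 5.35% in LCA. Each sequence is a RefSeq window on GRCm38.p6 from 250 bases before to 50 after the start site that the promoter table takes, read 5′ to 3′ on the + strand, chr9:103008237-103008536 for Slco2a1 and chr8:56294302-56294601 for Hpgd. The Hpgd site is the first base of the RefSeq gene, while the Slco2a1 site lies inside the RefSeq gene, which begins at base 103007061.
Slco2a1: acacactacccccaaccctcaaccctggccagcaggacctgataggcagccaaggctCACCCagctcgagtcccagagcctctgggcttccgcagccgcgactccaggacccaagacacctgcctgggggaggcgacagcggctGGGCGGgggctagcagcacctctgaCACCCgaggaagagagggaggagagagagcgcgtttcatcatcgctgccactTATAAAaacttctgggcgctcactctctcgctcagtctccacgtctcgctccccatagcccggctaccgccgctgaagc
Hpgd: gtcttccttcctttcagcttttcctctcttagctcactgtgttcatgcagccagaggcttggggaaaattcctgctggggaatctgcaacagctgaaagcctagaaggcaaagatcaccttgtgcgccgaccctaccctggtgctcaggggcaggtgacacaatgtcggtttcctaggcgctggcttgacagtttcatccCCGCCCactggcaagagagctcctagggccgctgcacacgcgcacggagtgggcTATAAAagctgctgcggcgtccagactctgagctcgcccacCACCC
Capitals mark 3 motifs on either strand: CACCC or GGGTG, the box that Krüppel-like factors read, CCGCCC or GGGCGG, the GC box, and TATAAA or TTTATA, the TATA box. The Slco2a1 window holds 2 CACCC boxes, 1 GC box and 1 TATA box, and no 2 of these matches overlap. The Hpgd window holds 1 of each. Counted from the start site, its TATAAA begins at base 5 and its CACCC at base 46, so both lie after that site. The TATAAA of Slco2a1 begins at base -29. Such letters are common, since 57.5% of 32851 promoter windows of this length hold a CACCC box, 35.7% a GC box and 13.6% a TATA box. A match describes the letters and is not evidence of binding.

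Signals were low on these arrays, whose deposited values are linear intensities with a floor of 72.4 and a median of 93.6. Probes of olfactory and vomeronasal receptors, 1504 in all, served as a guide to background, and their 95th percentile lay between 95.7 and 126. Where none of a group's arrays exceeded that level, the probe is called at background in that group. The share of the tested probes above it ranged from 15.3% on WT LCA replicate 3 to 58.3% on KO LCA replicate 3, and the median correlation with the other arrays from 0.628 on WT LCA replicate 3 to 0.836. The single Fbln5 probe lay at background on all 12 arrays, from 80.6 to 97.4, so it does not check the knockout. Of marker genes, 12 of 14 for endothelium, 7 of 12 for smooth muscle and 9 of 11 for fibroblasts lay above background on at least 6 arrays. No marker of mast cells (7 with a probe) or skeletal muscle (6 with a probe) did. Smooth muscle Cnn1, Lmod1 and Des were above it on at most 1 array.

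Of the 10 member probes, 7 passed the filter on dim probes, which asked for a value at or above the array median on at least 3 arrays. The 7 were 3 of the 4 Slco2a1 probes and 1 probe each for Ptgis, Hpgd, Ptgs2 and Ptges. Tests ran on log2 intensity in 1 limma fit over 25796 probes. Adjusted p-values are Benjamini-Hochberg over all of them, with a threshold of 0.05.

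Slco2a1 was highest in WT RCA and lower in the other 3 groups, and was lowest in the KO arteries. The brightest probe, ILMN_2961216, read 111, 118 and 114 in KO LCA and 136, 140.3 and 126 in KO RCA, against 154, 155 and 208 in WT LCA and 413, 238 and 427 in WT RCA. None of these 4 groups overlapped with another, and the probe was above background on all 12 arrays. Means were 114 ± 3.29 in KO LCA, 134 ± 7.08 in KO RCA, 172 ± 30.8 in WT LCA and 359 ± 106 in WT RCA (SD, n = 3 each). WT RCA replicate 2 was the lowest array of its group for every Slco2a1 probe that passed the filter. Yet of the WT arrays it had the most tested probes above background (55.1%) and the highest median correlation with other arrays (0.829). WT RCA replicates 1 and 3 had 0.748 and 0.725. For ILMN_2961216 and ILMN_2961221, leaving it out, as done below, removes the value furthest from the rest of its group. Passing without it is therefore not independent support.

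A second probe of the transporter, ILMN_2961221, read 96.4, 91.2 and 105 in KO LCA and 123, 126 and 115 in KO RCA, against 135, 124 and 114 in WT LCA and 437, 192 and 443 in WT RCA. It placed WT RCA above all other arrays, while KO RCA and WT LCA overlapped. The third, ILMN_2433848, read 91.5, 90.9 and 103 in KO LCA and 85.7, 102 and 108 in KO RCA, against 125, 119.6 and 122 in WT LCA and 320.2, 136 and 191 in WT RCA. Here the 2 KO groups overlapped, and both lay below both WT groups. The 3 probes followed each other over the 12 arrays, with Pearson r between 0.909 and 0.954, given as a description of arrays that share 4 groups. The fourth Slco2a1 probe, ILMN_1246309, stayed at background on all 12 arrays, between 82.4 and 96.5, and had r between -0.12 and 0.06 with the other 3. Because the probes of a gene can target different parts of its transcript, no level is set between them.

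**Figure D1:**
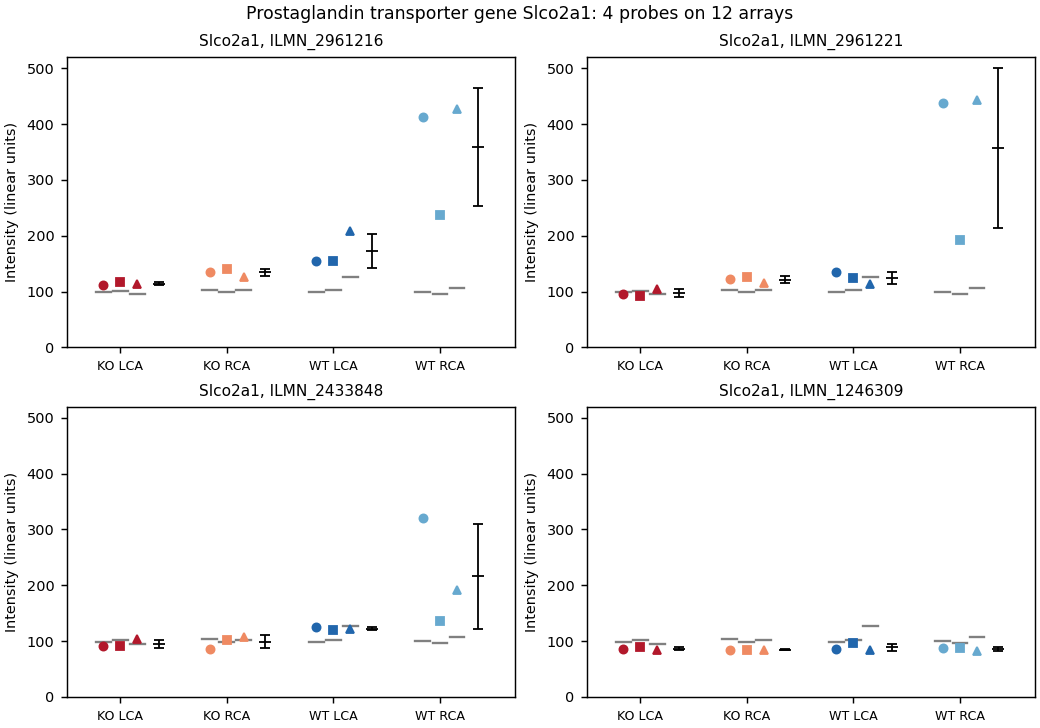
Intensity of the 4 Slco2a1 probes on each of the 12 arrays, 1 panel per probe, with KO LCA, KO RCA, WT LCA and WT RCA on the x axis and linear intensity on the y axis. Circles, squares and triangles are replicates 1, 2 and 3, bars the mean ± SD of 3 arrays, and grey ticks the receptor probes' 95th percentile of that array. In 3 probes WT RCA stands highest with a wide spread (413, 238 and 427 for ILMN_2961216), and the fourth lies at background throughout.

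In the untouched artery, Slco2a1 was lower in KO than in WT on all 3 measured probes. The log2 difference was -1.37 ± 0.20 (SE) for ILMN_2961216, a 2.59-fold lower level, with unadjusted p = 5.85e-05 and adjusted p = 0.215 in limma. It was -1.46 ± 0.27 for ILMN_2961221, adjusted p = 0.377, and -1.05 ± 0.24 for ILMN_2433848, adjusted p = 0.837. None of the 7 member probes passed in this comparison, where 0% of all tested probes did. At unadjusted p under 0.05, 3 of the 7 were lower and 0 higher, against 1.93% of all tested probes lower and 2.4% higher. The same 3 probes, all of them Slco2a1, were lower with no overlap between groups, as were 5.34% of all probes. Without WT RCA replicate 2 the first 2 probes passed, at -1.65 and adjusted p = 0.0026 for ILMN_2961216 and -1.86 and adjusted p = 9.3e-05 for ILMN_2961221, among 4 of all 25796 probes that then passed.

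In the ligated artery the same direction was seen with smaller values. Slco2a1 differed between KO LCA and WT LCA by -0.58 ± 0.20 for ILMN_2961216, adjusted p = 0.634 in limma, and the 3 KO arrays lay below the 3 WT arrays. The other 2 probes gave -0.35 ± 0.27 and -0.36 ± 0.24, with adjusted p = 0.790 and 0.788. No member probe passed, where 0.0426% of all tested probes did. At unadjusted p under 0.05, 1 of the 7 was lower and 0 higher, against 1.97% of all probes lower and 4.49% higher. Without overlap, 4 of the 7 were lower (3 of Slco2a1 and 1 of Hpgd), against 5.35% of all probes. A normexp background correction, which widens differences near the floor, gave -1.10 for ILMN_2961216 in LCA with adjusted p = 0.342 and -2.02 in RCA with adjusted p = 0.137.

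Averaged over both arteries, Slco2a1 was the only member that passed between genotypes, in a comparison added after the values were seen. ILMN_2961216 fell in KO by 0.98 ± 0.14 on the log2 scale, a 1.97-fold lower level, with adjusted p = 0.0451 in limma. That is 1 of 7 member probes, against 0.124% of all tested probes. ILMN_2961221 differed by -0.91 ± 0.19 (adjusted p = 0.170) and ILMN_2433848 by -0.70 ± 0.17 (adjusted p = 0.256). The call lies close to the threshold: leaving out any 1 array other than WT RCA replicate 2 ended it, with the value then between -0.90 and -1.01 and adjusted p between 0.0663 and 0.127.

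Ligation went with a lower level of Slco2a1 in WT arteries. The log2 difference LCA minus RCA was -1.03 ± 0.20 for ILMN_2961216, a 2.04-fold lower level, with unadjusted p = 0.00056 and adjusted p = 0.322 in limma. It was -1.43 ± 0.27 for ILMN_2961221, adjusted p = 0.318, and -0.73 ± 0.24 for ILMN_2433848, adjusted p = 0.680. Of the 7 member probes 0 passed, where 0% of all tested probes did. At unadjusted p under 0.05, 3 were lower and 0 higher, against 4.38% of all probes lower and 2.46% higher. These 3 Slco2a1 probes were also the only members lower without overlap, as were 6.54% of all probes. Without WT RCA replicate 2 the difference was -1.30 with adjusted p = 0.0186 for ILMN_2961216, and -1.83 with adjusted p = 0.00011 for ILMN_2961221, so both then passed, among 4 of all tested probes.

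In KO arteries the ligation difference of Slco2a1 was -0.23 ± 0.20 for ILMN_2961216 (95% interval from -0.69 to 0.22), adjusted p = 0.819 in limma. The other probes gave -0.32 ± 0.27 and -0.05 ± 0.24. On the first 2 probes all 3 KO LCA arrays lay below the 3 KO RCA arrays. The fit shares 1 spread over the 4 groups, so these errors and the interval do not measure the KO spread alone. For ILMN_2961216 the SD of the intensity was 3.29 in KO LCA and 7.08 in KO RCA, against 106 in WT RCA. Of the 7 member probes 0 passed, where 0% of all probes did. Only Hpgd, 1 of 7, was lower at unadjusted p under 0.05 and 0 were higher, against 4.3% of all probes lower and 3.25% higher. Without overlap 3 were lower, as were 11.2% of all probes. The difference between the ligation effects, KO minus WT, was 0.79 ± 0.29 for ILMN_2961216 (unadjusted p = 0.0209), 1.11 ± 0.38 for ILMN_2961221 (unadjusted p = 0.0151) and 0.69 ± 0.35 for ILMN_2433848 (unadjusted p = 0.0765). The adjusted p of the first 2 was 0.919. No member passed in this interaction, where 0% of all probes did, and 2 of 7 were higher and 0 lower at unadjusted p under 0.05, against 2.25% of all probes higher and 1.37% lower. In KO LCA these probes lay near background, where differences are compressed. KO RCA was low as well, with means of 134 for ILMN_2961216, 121 for ILMN_2961221 and 98.7 for ILMN_2433848. The last was above background there on 2 of 3 arrays, as were ILMN_2961221 and ILMN_2433848 in WT LCA. This limits the fall with ligation that could be seen in KO, and so the reading of the interaction. Without WT RCA replicate 2 the interaction of ILMN_2961221 was 1.51 with adjusted p = 0.0067, 1 of 3 probes that then passed, and that of ILMN_2961216 was 1.07 with adjusted p = 0.677.

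**Figure D2:**
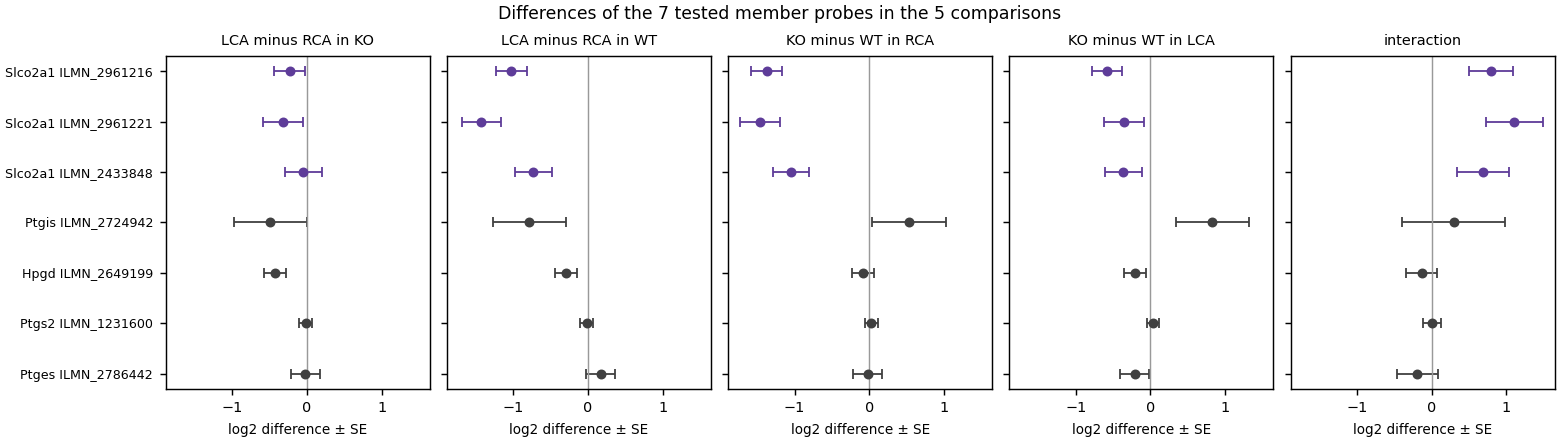
Log2 difference with its standard error for each of the 7 tested member probes in the 5 comparisons named on the axis, from the limma fit over 12 arrays. The 3 Slco2a1 probes lie at -1.37, -1.46 and -1.05 for KO minus WT in RCA and at -1.03, -1.43 and -0.73 for LCA minus RCA in WT, while Ptgs2 lies between -0.02 and 0.03 in every comparison.

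Slco2a1 is known in endothelium, among other cells, and in RNA of mixed cells fewer cells of a type and less RNA per cell cannot be told apart. How much of the RNA came from each layer of the artery wall was not tested. The summed level of 14 endothelial markers ranged from 3776 to 6319 in KO LCA and from 4430 to 5587 in KO RCA, against 3930 to 4577 in WT LCA and 4703 to 5681 in WT RCA. The highest sum, on KO LCA replicate 1, held 3593 from Pecam1. In RCA, 6 of the 14 markers were lower in KO than in WT, with a median log2 difference of 0.02. Cldn5 (-0.87), Tek (-0.53) and Cdh5 (-0.30) were among the lower ones there, and Erg (0.36) and Eng (0.21) among the higher ones. At unadjusted p under 0.05, 0 were lower and 1 higher, against 1.93% and 2.4% of all tested probes. Ligation in WT went with lower values of 8 of 14 markers, median -0.24. At unadjusted p under 0.05, 3 of them were lower and 0 higher, against 4.38% and 2.46% of all tested probes. In KO 10 of 14 were lower with ligation, median -0.09. At the same unadjusted threshold 1 was lower and 0 higher, against 4.3% and 3.25% of all tested probes. The vascular endothelial growth factor receptor Kdr was above background on at most 1 array. Markers of other cells also moved with the genotype. Summed erythrocyte markers (3 of 5 above background on at least 6 arrays) ranged from 1470 to 2951 in KO LCA and from 2163 to 5481 in KO RCA, against 1465 to 2089 in WT LCA and 782 to 1984 in WT RCA, without overlap in RCA. Summed smooth muscle markers (7 of 12 above background on at least 6 arrays) were higher in KO without overlap in both arteries. At unadjusted p under 0.05, 3 of 11 tested smooth muscle markers were higher in KO in RCA and 4 in LCA, and 0 were lower. Of 5 erythrocyte markers 2 were higher in RCA and 0 in LCA, and 0 were lower. Of all tested probes 2.4% were higher in RCA and 4.49% in LCA, and 1.93% and 1.97% lower. The part of endothelial, blood or smooth muscle content in the Slco2a1 differences was not tested. WT RCA replicate 2, low for Slco2a1, had an endothelial sum of 5681, and WT RCA replicates 1 and 3 had 5661 and 4703.

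Klf2 and Klf4, transcription factors induced by laminar flow, were lower in LCA than in RCA of both genotypes without passing. Klf2 averaged 115 ± 7.82 in KO LCA and 208 ± 56.4 in KO RCA, against 104 ± 6.89 in WT LCA and 189 ± 11.98 in WT RCA (SD, n = 3 each). Its ligation difference was -0.83 ± 0.16 in KO and -0.87 ± 0.16 in WT, with adjusted p = 0.627 and 0.318 in limma. Between genotypes it differed by 0.10 ± 0.16 in RCA and 0.15 ± 0.16 in LCA. Klf4 differed with ligation by -1.18 ± 0.29 in KO and -1.59 ± 0.29 in WT, and between genotypes by -0.43 ± 0.29 in RCA and -0.02 ± 0.29 in LCA. Icam1, an adhesion molecule of inflamed endothelium, was lowest in WT RCA, where Slco2a1 was highest. It averaged 575 ± 110 in KO LCA and 740 ± 90.0 in KO RCA, against 418 ± 111 in WT LCA and 271 ± 18.8 in WT RCA. Its KO minus WT difference was 1.44 ± 0.20 in RCA, adjusted p = 0.215, and averaged over both arteries it rose by 0.96 ± 0.14, adjusted p = 0.0427 in limma. That call ended with no filter (adjusted p = 0.0527), with eBayes trend and robust (0.215), with the replicate block as a random effect (0.0564) and with 2 WT arrays left out (0.0569). Leaving out 1 array ended it in 9 of 12 cases, with adjusted p from 0.0276 to 0.123 over the 12.

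**Figure D3:**
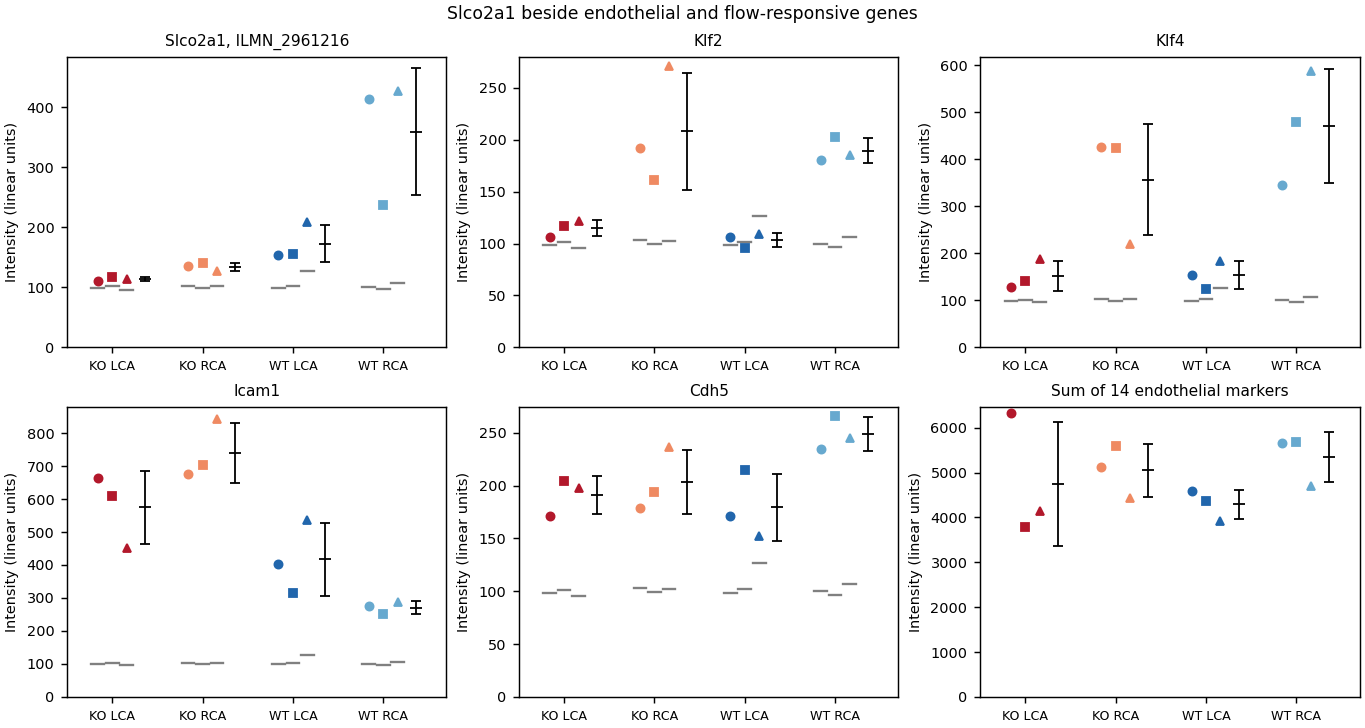
Intensity on each array of Slco2a1 (ILMN_2961216), Klf2, Klf4, Icam1 and Cdh5, and the summed intensity of 14 endothelial markers, with KO LCA, KO RCA, WT LCA and WT RCA on the x axis and linear intensity on the y axis. Circles, squares and triangles are replicates 1, 2 and 3, and bars are mean ± SD. Slco2a1 is highest in WT RCA, Klf2 and Klf4 are higher in both RCA groups than in their LCA groups, and Icam1 is lowest in WT RCA.

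By Pearson r over the 12 arrays, the 3 genes most like Slco2a1 among 15394 compared were Bace2, Pmaip1 and Grn, with r of 0.965, 0.960 and 0.915 and Spearman rho of 0.846, 0.881 and 0.734. Within groups r was 0.820, 0.726 and 0.699. Bace2 encodes a membrane protease, Pmaip1 a pro-apoptotic protein of the mitochondrion and Grn the growth factor precursor progranulin. Grn averaged 255 in KO LCA and 240.1 in KO RCA, against 344 in WT LCA and 738 in WT RCA, the order of groups having KO RCA lowest. These r are descriptions over arrays that share groups and were the highest of many.

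The cyclooxygenase measured, Ptgs2, stayed near background. Its probe ILMN_1231600 ranged from 93.0 to 113 and was above background on 3 of 12 arrays, with means of 100.2 ± 7.57 in KO LCA and 101 ± 10.0 in KO RCA, against 98.0 ± 6.31 in WT LCA and 99.3 ± 3.45 in WT RCA. All groups overlapped. Ligation differed by -0.02 ± 0.08 in both genotypes, with 95% intervals from -0.20 to 0.17 in KO and from -0.21 to 0.17 in WT, and the KO minus WT differences were 0.03 ± 0.08 in both arteries. The second probe, ILMN_2717913, was at background on all 12 arrays, between 78.1 and 93.6. Near the floor differences are compressed, so these intervals hold for the intensity and not for the transcript.

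Ptgis, the prostacyclin synthase, was above background on 11 of 12 arrays and varied widely within groups. Its probe ILMN_2724942 read 290.3, 315 and 326 in KO LCA and 828, 316 and 317 in KO RCA, against 347, 173 and 89.2 in WT LCA and 236, 301 and 387 in WT RCA. KO RCA replicate 1 stood far above every other array and WT LCA replicate 3, the array with the fewest probes above background, was the lowest. Means were 311 ± 18.4 in KO LCA and 487 ± 295 in KO RCA, against 203 ± 132 in WT LCA and 308 ± 76.0 in WT RCA.

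No comparison of Ptgis passed, and its groups overlapped in all of them. The ligation difference was -0.49 ± 0.49 in KO and -0.79 ± 0.49 in WT, with adjusted p = 0.849 and 0.699 in limma. Between genotypes it was 0.53 ± 0.49 in RCA, adjusted p = 1.00. In LCA it was 0.83 ± 0.49, adjusted p = 0.788, with a 95% interval from -0.27 to 1.92. Without WT LCA replicate 3 the Ptgis values were -0.30 for ligation in WT and 0.34 for KO minus WT in LCA, and without WT LCA replicate 1 they were -1.28 and 1.32. Without KO RCA replicate 1 they were -0.03 for ligation in KO and 0.07 for KO minus WT in RCA. Summed smooth muscle markers ranged from 2414 to 3271 in KO LCA and from 1832 to 2293 in KO RCA, against 1391 to 1772 in WT LCA and 1354 to 1617 in WT RCA. Their part in the Ptgis values was not tested. The 3 genes most like Ptgis over the arrays were Orc4 (r = 0.969), Parl (0.915) and Numb (0.914), with r within groups of 0.976, 0.877 and 0.859. Spearman rho was lower, at 0.776, 0.573 and 0.531. These r too were the highest of many.

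Ptges, the inducible prostaglandin E synthase, lay near background as Ptgs2 did. Its probe ILMN_2786442 ranged from 77.5 to 141 and was above background on 3 of 12 arrays, and WT LCA replicate 2 gave the highest value. Means were 87.4 ± 4.96 in KO LCA and 89.1 ± 11.4 in KO RCA, against 104 ± 31.96 in WT LCA and 90.7 ± 13.5 in WT RCA. Ligation differed by -0.02 ± 0.19 in KO and 0.17 ± 0.19 in WT, and KO minus WT by -0.02 ± 0.19 in RCA and -0.21 ± 0.19 in LCA. Without WT LCA replicate 2 the Ptges values were -0.07 for ligation in WT and 0.03 for KO minus WT in LCA, so both directions turned. No direction is drawn from them, and KO LCA was at background on 3 of 3 arrays. The second probe, ILMN_2616028, ranged from 81.6 to 112 and was above background on 1 array.

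Hpgd, the dehydrogenase that inactivates prostaglandins, was lower in the ligated than in the untouched artery of both genotypes, without passing. Its probe ILMN_2649199 read 88.8, 77.3 and 88.8 in KO LCA and 132, 112 and 101 in KO RCA, against 107, 92.6 and 94.9 in WT LCA and 149, 101 and 116 in WT RCA. The KO LCA arrays lay below all others, at background on 3 of 3, while 2 of 3 KO RCA, 1 of 3 WT LCA and 3 of 3 WT RCA arrays were above it. KO LCA also stood apart in summed adipocyte markers, while its summed fibroblast markers overlapped those of KO RCA and WT RCA. Summed adipocyte markers (2 of 7 above background on at least 6 arrays, with Plin1 and Lep on at most 1) ranged from 991 to 1325 in KO LCA and from 652 to 841 in KO RCA, against 667 to 835 in WT LCA and 701 to 879 in WT RCA. Summed fibroblast markers ranged from 1720 to 2422 in KO LCA and from 1472 to 1785 in KO RCA, against 1129 to 1557 in WT LCA and 1560 to 2244 in WT RCA. At unadjusted p under 0.05, 6 of 11 fibroblast and 3 of 6 tested adipocyte markers were higher in KO LCA, both against KO RCA and against WT LCA. Of all tested probes 3.25% were higher against KO RCA and 4.49% against WT LCA. The part of these cells in the Hpgd values was not tested. The ligation difference of Hpgd was -0.43 ± 0.15 in KO (unadjusted p = 0.0158, adjusted p = 0.634 in limma), at least 1.16-fold lower when KO LCA is set at the background level. In WT it was -0.30 ± 0.15, adjusted p = 0.699, and the WT groups overlapped. Averaged over both genotypes, a comparison added after the values were seen, it was -0.36 ± 0.10 with unadjusted p = 0.0061 and adjusted p = 0.414. Between genotypes Hpgd differed by -0.08 ± 0.15 in RCA and -0.21 ± 0.15 in LCA, with an interaction of -0.13 ± 0.21. The 3 genes most like it, Crygb, Cyp2d40 and Cd276 (r between 0.894 and 0.918), were themselves above background on 1, 0 and 1 arrays.

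**Figure D4:**
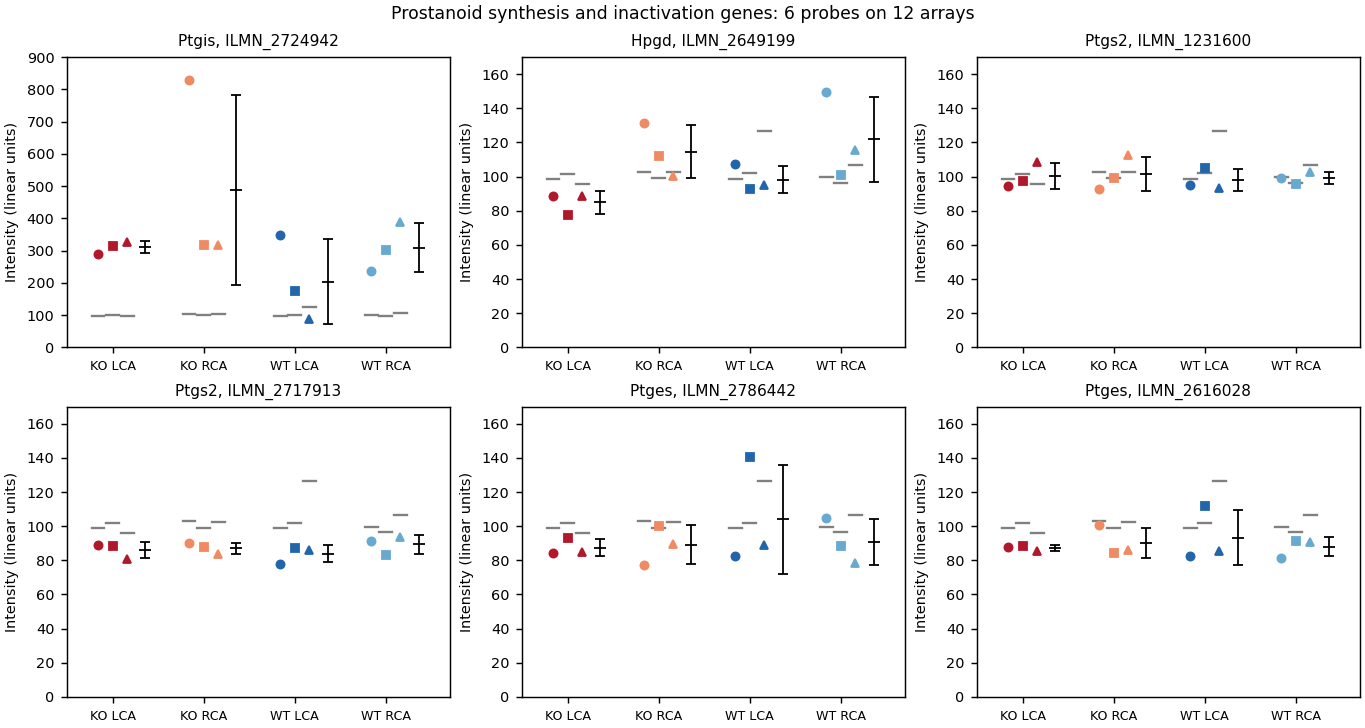
Intensity of the Ptgis, Hpgd, Ptgs2 and Ptges probes on each of the 12 arrays, 1 panel per probe, with KO LCA, KO RCA, WT LCA and WT RCA on the x axis and linear intensity on the y axis. Circles, squares and triangles are replicates 1, 2 and 3, bars the mean ± SD of 3 arrays, and grey ticks the receptor probes' 95th percentile of that array. Ptgis spans 89.2 to 828 with overlapping groups, Hpgd is lowest in KO LCA, and Ptgs2 and Ptges lie near background.

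As a set, the member probes had a median log2 difference of -0.23 for ligation in KO and -0.73 in WT, against 0.00 for all tested probes in both. For KO minus WT the median was -0.08 in RCA and -0.21 in LCA, against 0.00 for all tested probes. The medians weigh Slco2a1 by its 3 probes. Both ligation medians are themselves values of Slco2a1 probes, ILMN_2961216 in KO and ILMN_2433848 in WT. No shift of the members as a set is drawn from them.

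The receptors through which prostaglandins act were dim: of 9 listed, 8 had a probe, 6 were tested and 0 lay above background on at least 6 arrays. Ptger4, a prostaglandin E receptor, differed by 0.22 ± 0.07 with ligation in WT and by -0.25 ± 0.07 for KO minus WT in LCA (adjusted p = 0.672 and 0.485 in limma), with all groups concerned at background. Of 8 other prostanoid synthases 7 were tested, and 2, Ptges3 and Tbxas1, lay above background on at least 6 arrays. Ptges2, a further prostaglandin E synthase, differed by 0.18 ± 0.07 with ligation in KO, adjusted p = 0.641, with KO RCA at background. None of these synthases or receptors passed in the 5 comparisons. At unadjusted p under 0.05, 1 of the 6 receptors was higher with ligation in WT (2.46% of all probes), and Ptger4 was lower for KO minus WT in LCA (1.97%) and in the interaction (1.37%). Of the 7 synthases 1 was higher with ligation in KO (3.25%) and 1 for KO minus WT in LCA (4.49%).

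Upstream, of 17 genes that release arachidonate or restrain its release, 13 were tested and 5 were above background on at least 6 arrays. Anxa1, whose product annexin A1 restrains phospholipase activity, read 214, 277 and 205 in KO LCA and 193, 416 and 182 in KO RCA, against 148, 144 and 102 in WT LCA and 169, 151 and 108 in WT RCA. KO arrays lay above WT arrays in both arteries, by 0.83 ± 0.31 in LCA (adjusted p = 0.674 in limma) and 0.80 ± 0.31 in RCA (adjusted p = 1.00). Downstream, of 6 further genes of prostaglandin inactivation and export 4 were tested, and Ptgr1, a prostaglandin reductase, differed by -0.16 ± 0.06 with ligation in KO, adjusted p = 0.641, with KO LCA at background and no fold given. Of 14 genes of the lipoxygenase and leukotriene branch 10 were tested, and none had an unadjusted p under 0.05 in any of the 5 comparisons. Of 14 other organic anion transporters, the family of Slco2a1, 9 were tested and 2, Slco2b1 and Slco3a1, were above background on at least 6 arrays. None of these genes passed in the 5 comparisons. The arachidonate list had, at unadjusted p under 0.05, 1 of 13 genes higher and 1 lower with ligation in KO, near the 3.25% and 4.3% of all probes, and Anxa1 higher in KO in each artery, where 2.4% of all probes were in RCA and 4.49% in LCA. The inactivation list had Ptgr1 lower with ligation in KO and in the interaction, where 4.3% and 1.37% of all probes were. The transporters had 1 of 9 lower with ligation in each genotype, against 4.3% of all probes in KO and 4.38% in WT. The medians of these 4 lists lay between -0.07 and 0.03.

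Of 17 regulators of Ptgs2 and of flow responses, 15 were tested and 12 lay above background on at least 6 arrays. None passed in the 5 comparisons. With ligation in KO, 1 was higher and 3 lower at unadjusted p under 0.05, against 3.25% and 4.3% of all tested probes. With ligation in WT 2 were higher and 4 lower, against 2.46% and 4.38%. For KO minus WT 3 were higher and 0 lower in RCA, against 2.4% and 1.93%. In LCA 4 were higher and 0 lower, against 4.49% and 1.97%, among them Rela, a subunit of NF-kappaB, at 0.76 ± 0.19 with adjusted p = 0.370 in limma. Sele, the endothelial selectin, differed by 1.65 ± 0.35 for KO minus WT in RCA and 1.03 ± 0.35 in LCA.

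**Figure D5:**
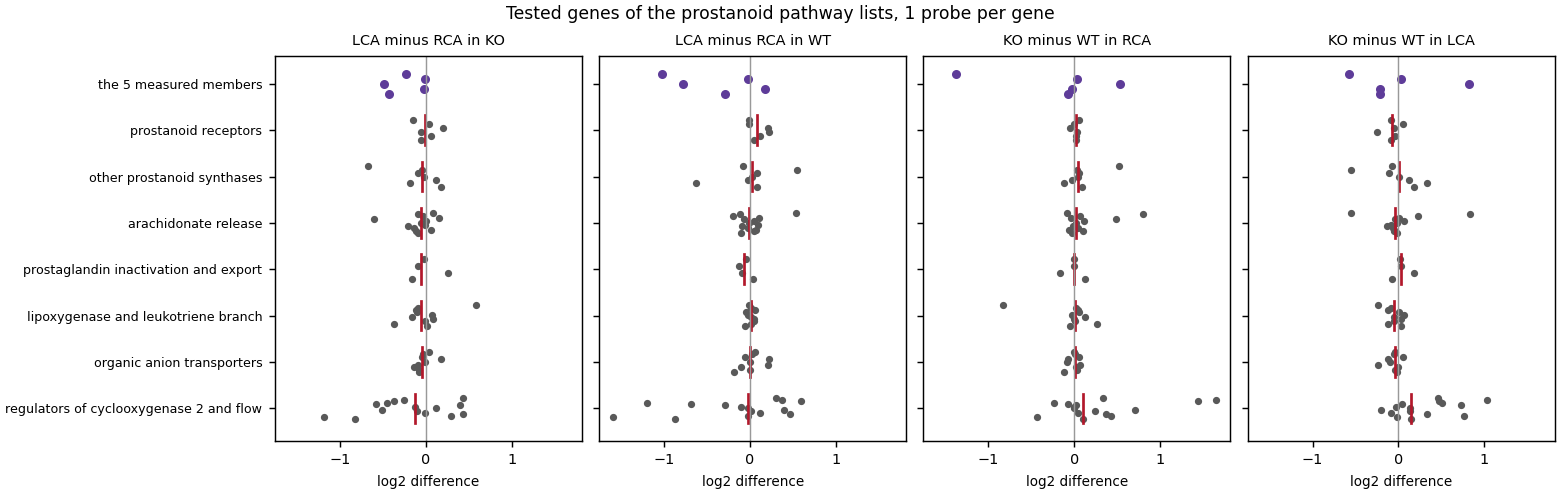
Log2 differences of the tested genes of 7 pathway lists in 4 comparisons, 1 point per gene, with the list median as a red line and the lead probes of the 5 measured members in purple. The lists of receptors, synthases, arachidonate release, inactivation, lipoxygenase and organic anion transporters centre near 0, and Slco2a1 lies at -1.37 for KO minus WT in RCA and at -1.03 for LCA minus RCA in WT.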

How the data were processed

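RNA of mouse carotid arteries, for 12 arrays with 3 per group, was extracted with a Qiagen miREasy kit and labelled as biotinylated cRNA with an Ambion MessageAmp kit, per the labels' protocols. The values the authors deposited are linear probe intensity values for 45281 probes from 72.4 to 10230. All arrays have nearly the same median, between 93.5 and 93.6, as quantile normalization by them would give. The scanner software, any background step and the tool that normalized the arrays are not given in the sources, and no slide is named, so no slide block was tested. The platform annotation gave 34885 probes 1 symbol, 18 several and 10378 none, and the last 2 kinds were left out.

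Log2 intensity of 25796 probes (15395 genes) entered 1 fit of the 4 group means in limma 3.58.1 (R 4.3.3) with eBayes. Kept probes reached the median of the array on 3 arrays or more. P-values were two-sided and Benjamini-Hochberg adjusted over all kept probes, threshold 0.05. A member's lead probe had the highest mean. Of each pathway list the 2 genes with the smallest p in each comparison, or those that passed, could be named. Genes outside that rule (Klf2 and Klf4 between genotypes, and the cell type markers) were chosen after their values were seen. Members and lists were chosen with earlier results of these data known. Alternatives were a normexp correction (offset 16), log2(value + 16), other filters, 1 probe per gene, array weights, eBayes with trend and robust, 2 groups alone, the replicate number as a block, and leaving out each array. With 25796 probes simulated for KO minus WT in LCA, 52% of probes changed by 0.5 log2 units were recovered, 72% at 1, 96% at 2 and 96% at 3, 50 probes a size, with 5 false of 163 calls. The simulated noise was independent and normal, with the same spread for a probe in all groups, and the changed probes were picked at random. The Slco2a1 groups differed in spread, so these rates do not give the recovery for the member probes. The number of arrays limits the precision.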

Additional observations from a re-analysis of the deposited data

How the results depend on the processing

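No member probe passed in the 4 comparisons of 2 groups or in the interaction under any alternative other than leaving out 1 array, nor with WT LCA replicate 3 and WT RCA replicate 3 left out together, a setting chosen after seeing the data. Leaving out 1 array gave from 0 to 2 member probes for LCA minus RCA in WT, from 0 to 2 for KO minus WT in RCA, from 0 to 1 for the interaction and from 0 to 1 for LCA minus RCA averaged over both genotypes, above 0 only without WT RCA replicate 2. It gave 0 for LCA minus RCA in KO and KO minus WT in LCA each time. The averaged KO minus WT count of 1 was 0 with log2(value + 16) (Slco2a1 ILMN_2961216 adjusted p = 0.0527 in limma), with no filter (0.0571), with 1 lead probe per gene (0.0505), with eBayes trend and robust (0.144), with the replicate block as a random effect (0.0565) and with 2 WT arrays left out (0.108). The cause was not tested. The last setting has fewer arrays, and the adjustment ran over 34885 probes with no filter and 15395 with 1 lead probe, against 25796. The averaged KO minus WT count was 1 under normexp, the stricter filter and array weights, and from 0 to 2 when 1 array was left out. Over all kept probes the count passing for KO minus WT in LCA was 11, against 1 with 1 lead probe per gene, 4 with array weights, 18 with the stricter filter and 0 with trend and robust or the 2 groups alone, and the averaged count was 32, against 1 with trend and robust, 18 with 1 lead probe per gene and 11 with 2 WT arrays left out. Leaving out 1 array moved the first count between 0 (without KO LCA replicate 1 or 3) and 25 (without WT LCA replicate 1), and the second between 5 (without KO RCA replicate 3) and 45 (without WT RCA replicate 2). The check used did not settle whether replicate numbers pair the arteries, and with 3 arrays per group it cannot exclude pairing. Deviations of same-numbered LCA and RCA arrays correlated between -0.0150 and 0.0814, with a consensus correlation of 0.0659. Of 6 LCA arrays 4 correlated best with the RCA array of their own number. With the replicate block 0 member probes passed in the 5 comparisons, and probes at unadjusted p under 0.05 for LCA minus RCA in KO numbered 1795 (fixed) and 2175 (random), against 1946 without it. No member difference with an unadjusted p under 0.05 changed sign. Signals near the floor limit Ptgs2, Ptges, Hpgd, the receptors and Slco2a1 in the KO arteries, for which a missed call does not show equal expression.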
